A study of Mus musculus with 14 samples.

Results

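The cholesterol efflux genes described here are Abca1, Abcg1, Apoe, Nr1h3, Nr1h2, Mylip and Pparg, 7 of the 24556 mouse genes in the deposited expression table. They were taken from a given list of names, by gene symbol, and all 7 were found. No cutoff on measured values was used, but earlier results of these data were known when the list was chosen. Expression was measured by RNA sequencing in macrophages isolated from tumours of Balb/c mice. The tumours were formed by 4T1 cells, a mouse mammary carcinoma line, injected into the fat pad. Before injection the 4T1 cells, not the mice or the macrophages, were cultured for 5 days with 5 µM GSK269962A, an inhibitor of the kinase ROCK, or with its vehicle DMSO. Macrophages were then taken with magnetic beads against F4/80, a macrophage surface protein, in 2 rounds of column purification. There were 4 libraries from day 14 after injection of GSK269962A-treated cells (GSK day 14), 4 from day 14 after DMSO-treated cells (DMSO day 14), 3 from day 8 after GSK269962A-treated cells (GSK day 8) and 3 from day 8 after DMSO-treated cells (DMSO day 8). All 4 groups carry the same tumour line in the same strain of mouse and differ in the pre-treatment and the day. Whether the numbered libraries of a group stem from different mice is not stated in the labels, and the p-values therefore measure only the spread between these libraries, which may be technical. Values are on the authors' log2 scale. The table gives no counts, which leaves the depth of each library unknown.

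Macrophages that take up lipoproteins and dying cells must dispose of the cholesterol they receive. When sterol accumulates, oxysterols activate the liver X receptors, encoded by Nr1h3 (LXR alpha) and Nr1h2 (LXR beta), which pair with a retinoid X receptor and switch on Abca1, Abcg1, Apoe and Mylip. ABCA1 passes cholesterol to lipid-poor apolipoproteins, ABCG1 passes it to high-density lipoprotein, apolipoprotein E carries it away, and MYLIP (also called IDOL) is a ubiquitin ligase that limits lipoprotein uptake. Pparg encodes the fatty acid receptor PPAR gamma, which in macrophages can raise Nr1h3.

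The sequences before the start sites of Abca1 and Mylip are shown because these members rose and fell between the pre-treatments. Promoter sequences from RefSeq (GRCm38.p6), which run from 250 bases before a start site to 50 after it, matched 6 of the 7 members by symbol, with 11 promoters in all, since several genes have more than 1 start site. Liver X receptors are known to bind a direct repeat of AGGTCA with 4 bases between the copies, so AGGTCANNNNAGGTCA was searched on both strands, counting mismatches over its 12 fixed letters. The 120 bases before the Abca1 start site (chr4:53159896-53160015, minus strand) and before the Mylip start site (chr13:45389622-45389741, plus strand) read as follows, 5′ to 3′ on the strand of the gene, with the best match of Abca1 in capitals.
Abca1: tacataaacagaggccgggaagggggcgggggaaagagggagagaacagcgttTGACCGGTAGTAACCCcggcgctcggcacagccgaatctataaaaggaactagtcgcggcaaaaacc
Mylip: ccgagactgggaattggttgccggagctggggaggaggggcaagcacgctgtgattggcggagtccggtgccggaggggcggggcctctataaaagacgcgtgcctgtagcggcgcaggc
The Abca1 match lies 67 to 52 bases before the start and, read on the opposite strand as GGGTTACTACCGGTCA, has 3 mismatches. Of 32851 promoters of the same length, 21.9% hold a match with at most 3 mismatches, so a match of this quality is common. The best matches in the Apoe, Nr1h3 and Nr1h2 promoters have 4 mismatches, which 76.9% of promoters reach, and the best in the Mylip promoter has 5. The best of the Pparg promoters has 3. These matches describe letters in these windows and were not tested as binding sites.

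In the GRCm38 annotation (GENCODE M21) the members are protein-coding genes on separate chromosomes, apart from Apoe and Nr1h2. Abca1 (ENSMUSG00000015243) lies on chromosome 4 from 53030787 to 53159895 and Abcg1 (ENSMUSG00000024030) on chromosome 17 from 31057675 to 31117988. Apoe (ENSMUSG00000002985) lies on chromosome 7 from 19696109 to 19699188, and Nr1h2 (ENSMUSG00000060601) on the same chromosome from 44549616 to 44553951. Nr1h3 (ENSMUSG00000002108) lies on chromosome 2 from 91184061 to 91202834, Mylip (ENSMUSG00000038175) on chromosome 13 from 45389742 to 45412022 and Pparg (ENSMUSG00000000440) on chromosome 6 from 115360951 to 115490399. At most 1.52% of the 31-base words of any member's exons occur in another gene, the highest share being that of Abcg1. Counted over whole gene spans with introns, Nr1h3 overlaps Gm13783 and Abcg1 overlaps Gm25447, each on its own strand. Reads of such a pair cannot be told apart where exons of both coincide. Of the words of Nr1h3, 0.189% are shared, with Gm13783. The genes that share the most words with Abcg1 are 4930539E08Rik, Hhat and Trio.

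Libraries of the same group correlated with each other at 0.967 to 0.993 over all kept genes. All 13 macrophage markers of the list used were kept, among them Adgre1, the gene of F4/80, at 10.19 ± 0.11, 9.49 ± 0.40, 9.48 ± 0.50 and 9.20 ± 0.18 on the log2 scale in GSK day 14, DMSO day 14, GSK day 8 and DMSO day 8 libraries (SD, n = 4, 4, 3 and 3). The markers did not move together. Between the pre-treatments on day 14, 3 of the 13 rose and 3 fell with an adjusted p under 0.05 (limma). Aif1, for example, had 13.19 ± 0.17 in GSK and 13.80 ± 0.36 in DMSO day 14 libraries, and Itgam 11.40 ± 0.05 and 11.99 ± 0.11. Markers of other cells were kept as well: 9 of 9 for endothelium, 9 of 14 for the 4T1 epithelium, 5 of 9 for fibroblasts and 5 of 10 for neutrophils, against 2 of 10 for T and NK cells and none for the fat pad. Averaged over all libraries, the log2 values of Cdh1 (10.35), Pecam1 (10.15) and Retnlg (10.54) were near that of Abca1 (10.39). Those of Epcam (3.79), Cdh5 (4.28) and S100a8 (3.98) were far lower. These values are not per kilobase of exon and do not rank the genes by abundance. The libraries also split by which of 2 overlapping ribosomal RNA genes holds their signal: AY036118 was the higher in all 4 GSK day 14, in 2 DMSO day 14 (libraries 1 and 3), in 2 GSK day 8 (libraries 2 and 3) and in 1 DMSO day 8 library (library 2). This split is not part of the design and is uneven over the groups, so changes among libraries with AY036118 high are given for the members that they move.

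The members spanned a wide range of levels. Apoe was among the most abundant transcripts of the fraction. Per kilobase of exon, on the unlogged scale, its group means were 69893 in GSK day 14, 63865 in DMSO day 14, 40278 in GSK day 8 and 30042 in DMSO day 8 libraries, which placed it 5th, 8th, 11th and 15th among 11875 genes with a known length. Apoe alone made up a median of 2.14% of the summed unlogged signal in GSK day 14, 1.72% in DMSO day 14, 1.14% in GSK day 8 and 0.736% in DMSO day 8 libraries. Abca1 and Nr1h3 followed far below, with unlogged levels per kilobase of 166 and 114 in GSK day 14 and 113 and 178 in DMSO day 14 libraries. Nr1h2 had 66.7, 51.9, 51.1 and 64.4 and Mylip 57.2, 83.6, 58.2 and 114 per kilobase in GSK day 14, DMSO day 14, GSK day 8 and DMSO day 8 libraries, so the order of these lower members changed with the group. Abcg1 was the lowest measurable member, at 14.8, 10.1, 10.7 and 9.51 per kilobase in the same order. Pparg was at the floor of the table, between -0.00 and 0.10 on the log2 scale in all 14 libraries, and was not tested. With no depth known, this does not show that Pparg was absent.

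The unlogged value had to reach 10 in at least 3 libraries for a gene to be tested, and 6 of the 7 members and 11886 genes did so. On day 14 Abca1 rose and Nr1h3 fell in GSK against DMSO libraries. Averaged over both days, Mylip was the only member that passed, and it fell. Apoe passed in the mean change between the days and in no comparison of the pre-treatments. On day 8 alone no member passed, with 1 of 6 at an unadjusted p under 0.05 (limma), a level that 16.3% of all genes reached. The plot of member levels shows the values of each library.

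**Figure D1:**
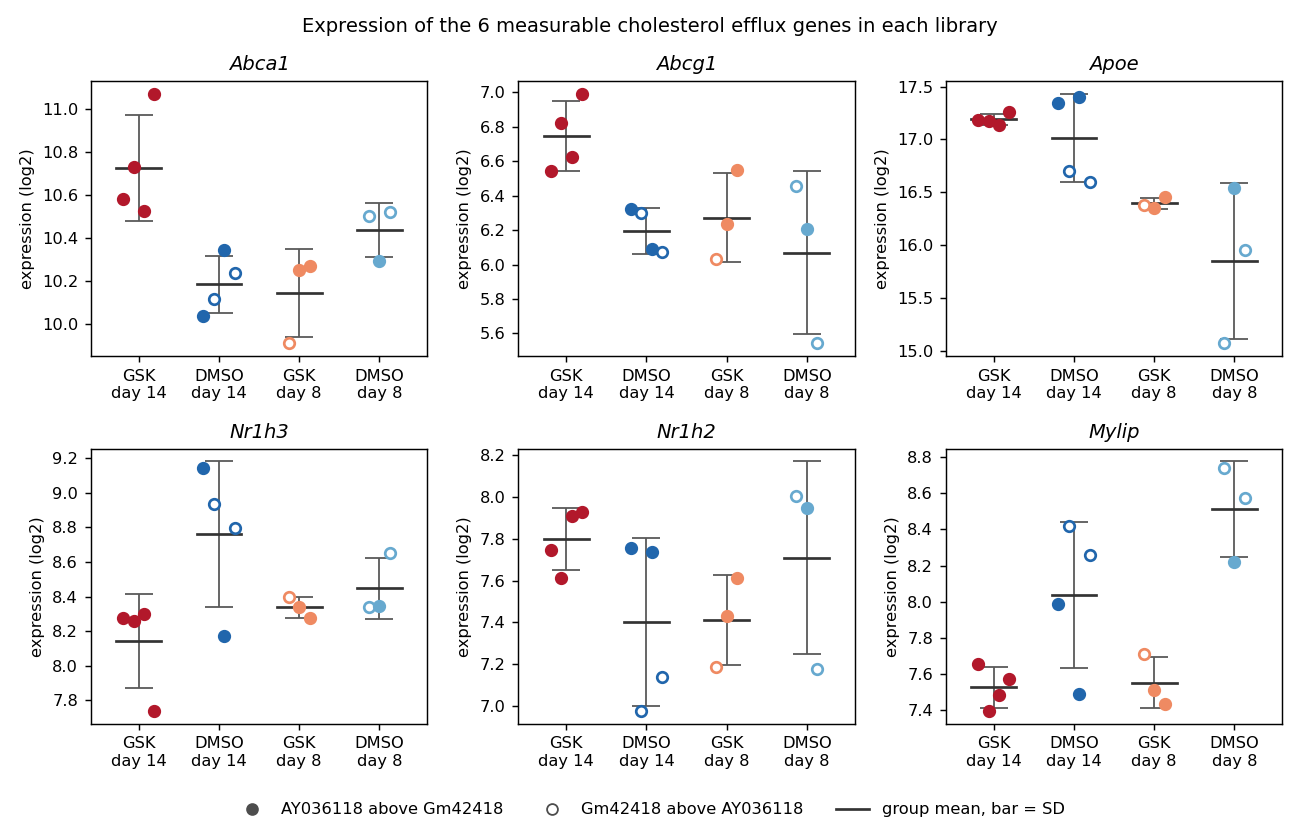
Expression (log2) of the 6 measurable members in each library, by group, with a line at the group mean and a bar for the SD. Filled points are libraries with AY036118 above Gm42418 and open points the reverse. Abca1 lies between 10.53 and 11.07 in the 4 GSK day 14 libraries, above all DMSO day 14 libraries, and Mylip lies between 7.44 and 7.71 in GSK day 8 libraries, below all DMSO day 8 libraries.

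Nr1h3, which encodes LXR alpha, had log2 values of 8.28, 8.26, 8.30 and 7.74 in GSK day 14 libraries, against 9.14, 8.93, 8.17 and 8.80 in DMSO day 14 libraries. GSK libraries 1, 2 and 3 are close together with library 4 below them, and DMSO library 3 falls among the GSK values, so the groups overlap. The change was -0.62 (SE 0.19, adjusted p = 0.0441, limma with Benjamini-Hochberg adjustment). In this comparison 10.8% of the 11886 tested genes passed in either direction, with 5.1% higher and 5.73% lower, and 2 of the 6 members did, 1 in each direction. On day 8 Nr1h3 had 8.40, 8.34 and 8.28 in GSK libraries and 8.34, 8.35 and 8.65 in DMSO libraries. Those groups overlap, with a change of -0.11 (SE 0.22, adjusted p = 0.840, limma). The mean over both days was -0.36 (SE 0.14, adjusted p = 0.0948, limma), and the difference between the days was -0.51 (95% interval -1.11 to 0.09). The day 14 call on Nr1h3 was kept in 5 of 14 fits that left out 1 library: it was lost without any 1 of the 4 GSK day 14 libraries, DMSO day 14 library 1, 2 or 4, or GSK day 8 library 2 or 3, with changes of -0.67 to -0.48 and adjusted p up to 0.172 (limma). It was also lost among libraries with AY036118 high, with a change of -0.51 (adjusted p = 0.193, limma).

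Nr1h2, the more broadly expressed receptor, had log2 values of 7.75, 7.61, 7.91 and 7.93 in GSK day 14 libraries, against 7.76, 6.97, 7.74 and 7.14 in DMSO day 14 libraries. DMSO libraries 1 and 3, the pair with AY036118 high, are level with the GSK libraries, and DMSO libraries 2 and 4 are lower. The change of 0.40 (SE 0.21, adjusted p = 0.232, limma) did not pass, and among libraries with AY036118 high it was 0.054. On day 8 the values were 7.18, 7.43 and 7.61 in GSK libraries and 8.00, 7.95 and 7.18 in DMSO libraries, with a change of -0.30 (SE 0.24, adjusted p = 0.568, limma). The log2 difference of Nr1h3 over Nr1h2 was 0.34 ± 0.37 in GSK day 14, 1.36 ± 0.66 in DMSO day 14, 0.93 ± 0.28 in GSK day 8 and 0.74 ± 0.64 in DMSO day 8 libraries (SD, n = 4, 4, 3 and 3), given as a description. On this scale the values of the receptors were closest to each other in the GSK day 14 group. Library 4 there was the only library with a higher log2 value for Nr1h2 than for Nr1h3, at -0.19. These values are not per kilobase of exon (2.515 kb for Nr1h3 and 3.354 kb for Nr1h2). On their own they do not show which of the transcripts was more abundant. Per kilobase, the unlogged group means of Nr1h3 were the higher in each group. They were 114, 178, 129 and 139 for Nr1h3 in GSK day 14, DMSO day 14, GSK day 8 and DMSO day 8 libraries. For Nr1h2 they were 66.7, 51.9, 51.1 and 64.4 in the same order.

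Abca1, the transporter to lipid-poor apolipoproteins, had log2 values of 10.58, 10.73, 10.53 and 11.07 in GSK day 14 libraries, against 10.04, 10.12, 10.34 and 10.24 in DMSO day 14 libraries. Every GSK library lies above every DMSO library, with GSK library 4 the highest, and such a separation held for 22% of all tested genes. Abca1 rose by a log2 change of 0.54 (SE 0.14, 1.46-fold, adjusted p = 0.0260, limma). On day 8 Abca1 had 9.91, 10.25 and 10.27 in GSK libraries, against 10.50, 10.29 and 10.52 in DMSO libraries. Here the GSK libraries lie below the DMSO libraries without overlap, by a margin of only a few hundredths between the nearest libraries, which was the case for 16.2% of genes in either direction. The day 8 change was -0.29 (SE 0.16, adjusted p = 0.383, limma) and did not pass, and among libraries with AY036118 high it was -0.031, with 1 DMSO library left. The day 14 change exceeded the day 8 change by 0.84 (SE 0.22, 95% interval 0.38 to 1.29), and by 0.57 among libraries with AY036118 high. That difference had an unadjusted p of 0.00128 and ranked 29th of 11886 genes, but its adjusted p was 0.504 (limma), and 0.00841% of genes (1 gene) passed in that comparison. No member passed in it, and 2 of 6, Abca1 and Nr1h2, had an unadjusted p under 0.05 (limma), as did 8.3% of all genes. The mean over both days was 0.12 (SE 0.11, adjusted p = 0.466, limma).

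Between the days, Abca1 rose in GSK libraries by 0.58 on day 14 against day 8 (SE 0.15, adjusted p = 0.0333, limma). The groups do not overlap, as was the case for 30.3% of all tested genes. Abca1 was the only member called of 6, where 7.01% of genes passed and 3.05% rose, and it shares the GSK day 14 libraries with the comparison above. In DMSO libraries the change between the days was -0.25 (SE 0.15, adjusted p = 0.439, limma) and the groups overlap. The day 14 call between pre-treatments was lost without GSK day 14 library 2 or 4 or DMSO day 14 library 1, 2 or 4, with adjusted p of 0.0512 to 0.110 and changes of 0.43 to 0.56 (limma). The call between days was lost without GSK day 14 library 1, 2 or 4 or GSK day 8 library 1 or 2, with adjusted p of 0.0596 to 0.203 (limma). Between the days in GSK libraries 7 of 9 kept epithelium markers fell, with a median of -1.70, as did both kept erythroid markers. With the epithelium mean as a covariate the Abca1 change between the days was 0.41 and no longer passed (adjusted p = 1.000, limma), in a fit in which 1 gene passed, against 833 without the covariate. Among libraries with AY036118 high it was 0.46 (adjusted p = 0.147, limma). On day 14 none of the 9 kept epithelium markers passed between pre-treatments, and of the 13 macrophage markers 3 rose and 3 fell. With the epithelium covariate the Abca1 change between pre-treatments was 0.51 (adjusted p = 0.0620, limma). Among libraries with AY036118 high the day 14 change between pre-treatments was 0.54 with an adjusted p of 0.0677 (limma).

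Abcg1 differed in the same direction as Abca1 on day 14 and did not pass. Its log2 values were 6.55, 6.82, 6.62 and 6.99 in GSK day 14 libraries, against 6.32, 6.30, 6.09 and 6.07 in DMSO day 14 libraries. As for Abca1, all GSK libraries lie above all DMSO libraries and GSK library 4 is the highest. On day 14, groups without overlap were found for 22% of all tested genes. The change was 0.55 (SE 0.19, 95% interval 0.15 to 0.95, adjusted p = 0.0701, limma). On day 8 Abcg1 had 6.03, 6.24 and 6.55 in GSK libraries and 6.46, 6.21 and 5.54 in DMSO libraries, which overlap (change 0.20, SE 0.22, adjusted p = 0.677, limma). The wide DMSO day 8 spread comes from library 3, without which the day 8 change was -0.058. Over both days Abcg1 changed by 0.38 (SE 0.14, adjusted p = 0.0870, limma).

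**Figure D2:**
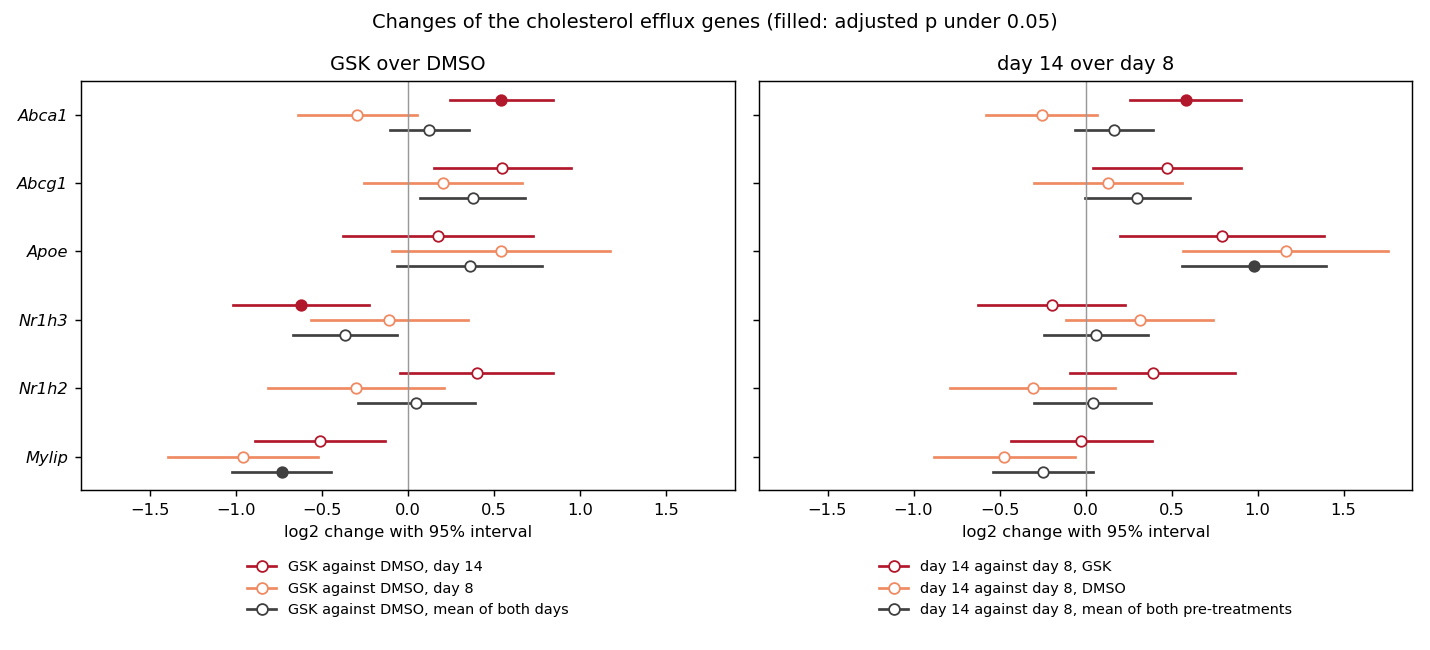
Log2 changes of the 6 measurable members with 95% intervals from the limma fit, GSK over DMSO on the left and day 14 over day 8 on the right, with filled points where the adjusted p is under 0.05. Filled are Abca1 and Nr1h3 on day 14 and Mylip in the mean of both days on the left, and Abca1 in GSK libraries and Apoe in the mean of both pre-treatments on the right.

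Apoe, the secreted acceptor, followed the day. Its log2 values were 17.18, 17.17, 17.14 and 17.26 in GSK day 14 libraries, against 16.38, 16.35 and 16.45 in GSK day 8 libraries. Both groups are tight and far apart, with a change of 0.80 (SE 0.28, adjusted p = 0.0909, limma). In DMSO libraries Apoe had 17.35, 16.70, 17.40 and 16.60 on day 14, against 15.07, 16.54 and 15.95 on day 8. These groups do not overlap either, although both are wide, and the change was 1.16 (SE 0.28, adjusted p = 0.0669, limma). Groups without overlap made up 30.3% of genes in GSK and 10.1% in DMSO libraries between the days. Neither comparison called Apoe. In DMSO libraries no member passed, where 0.824% of genes did, and 2 of 6, Apoe and Mylip, had an unadjusted p under 0.05 (limma), as did 15.4% of all genes. The mean of both changes, a comparison chosen after the values were seen, was 0.98 (SE 0.20, 95% interval 0.56 to 1.40, adjusted p = 0.00694, limma), and Apoe was the only member called of 6, where 12.3% of all genes passed and 5.31% rose. Apoe passed in that comparison in all 14 fits that left out 1 library, with changes of 0.78 to 1.15, and among libraries with AY036118 high alone, with 0.81 (adjusted p = 0.0105, limma).

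Other cell types moved with the day as well. The mean log2 level of the 4T1 epithelium markers was 4.23 ± 0.05 in GSK day 14, 4.46 ± 0.16 in DMSO day 14, 5.50 ± 0.58 in GSK day 8 and 5.10 ± 0.33 in DMSO day 8 libraries (SD, n = 4, 4, 3 and 3). In the mean of both changes between the days, 8 of 9 kept epithelium markers and 4 of 9 endothelium markers fell, as did both kept erythroid markers, and 5 of 13 macrophage markers rose. With the epithelium mean as a covariate the Apoe change between the days was 0.90, against 0.98 without it, with an adjusted p of 0.893 (limma). Over the settings other than leaving out 1 library, 1 to 1906 genes passed in this comparison, against 1466 in the main fit. The part of other cells in the change was otherwise not tested, and in such bulk fractions fewer cells of a type and less RNA per cell cannot be told apart.

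Between pre-treatments Apoe did not pass, with changes of 0.17 on day 14 (SE 0.26, 95% interval -0.37 to 0.72, adjusted p = 0.714, limma) and 0.54 on day 8 (SE 0.30, 95% interval -0.09 to 1.18, adjusted p = 0.382, limma). The spread of the DMSO libraries went with the ribosomal RNA split. On day 14 the pair of DMSO libraries with AY036118 high had 17.35 and 17.40, above every GSK library, and the other pair had 16.70 and 16.60, below every GSK library. On day 8 the DMSO library with AY036118 high had 16.54, above the GSK libraries, and the other pair had 15.07 and 15.95, below them. Among libraries with AY036118 high the changes were -0.19 on day 14 and -0.14 on day 8, so the direction between pre-treatments turned. Without DMSO day 8 library 1, the lowest of all 14, the day 8 change was 0.15.

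Mylip, the ubiquitin ligase, was the member whose difference between pre-treatments kept its call under every setting tried. It had log2 values of 7.71, 7.51 and 7.44 in GSK day 8 libraries, against 8.74, 8.22 and 8.58 in DMSO day 8 libraries. All GSK libraries lie below all DMSO libraries, and 16.2% of all tested genes had no overlap in either direction on day 8. The change was -0.96 (SE 0.21, 95% interval -1.40 to -0.52, adjusted p = 0.0573, limma). On day 8 no member passed and 0.194% of genes (23) did, while 1939 genes had an unadjusted p under 0.05, Mylip among them at 0.000264. On day 14 Mylip had 7.66, 7.39, 7.49 and 7.57 in GSK libraries, against 7.99, 8.42, 7.49 and 8.26 in DMSO libraries. Of the DMSO libraries only library 3 falls among the GSK values. The change was -0.51 (SE 0.18, adjusted p = 0.0761, limma). The DMSO day 14 values went with the ribosomal RNA split, at 7.99 and 7.49 with AY036118 high and 8.42 and 8.26 without, and among libraries with AY036118 high the day 14 change was -0.21.

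Averaged over both days Mylip fell by 0.73 on the log2 scale (SE 0.14, 95% interval -1.02 to -0.45, adjusted p = 0.00386, limma). It was the only member called of 6, where 14.5% of all genes passed and 7.77% fell. The call was kept in all 14 fits that left out 1 library, with changes of -0.83 to -0.67, and in all 12 other settings, with changes of -0.79 to -0.48. The smallest of these came from libraries with AY036118 high alone, where the adjusted p was 0.0439 (limma). The change did not differ detectably between the days, with a difference of 0.45 (95% interval -0.13 to 1.03, adjusted p = 0.664, limma). Mylip hardly moved between the days in GSK libraries, at -0.024 (SE 0.19), and by -0.47 (SE 0.19, adjusted p = 0.261, limma) in DMSO libraries.

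The other genes of sterol handling were followed in lists by role, whose counts and medians stand beside the median of all tested genes, 0.02 on day 14 and 0.03 in the mean of both days. Together, 11 of their 90 kept genes passed on day 14, where 10.8% of all genes did, and 14 in the mean of both days, where 14.5% did, so these genes were called about as often as other genes. Among libraries with AY036118 high, 8 of the 11 and 8 of the 14 calls were kept: Lipe, Cd68 and Cyp51 were lost on day 14, and Pdk4, Rxrb, Lipe, Sorl1, Srebf2 and Cyp51 in the mean, all with the same direction. With the epithelium mean as a covariate 5 of the 11 calls on day 14 and all 14 in the mean were kept. Lpl, Lipe, Cyp27a1, Cd68, Msmo1 and Cyp51 were then lost on day 14, with the same direction. Of 14 kept other targets of the liver X receptors, 2 rose on day 14, none fell and 12 did not pass, with a median log2 change of 0.22. Pltp, which encodes the phospholipid transfer protein of plasma lipoproteins, had log2 values of 4.95, 4.78, 5.36 and 5.55 in GSK day 14 libraries, against 3.83, 3.67, 4.00 and 4.43 in DMSO day 14 libraries. The groups do not overlap, as for 22% of all tested genes, and Pltp rose by 1.18 (SE 0.19, adjusted p = 0.00408, limma). The call was kept in all 14 fits without 1 library and in all 12 other settings that could be fitted. With a stricter filter Pltp was not kept, since its level is low, with a mean unlogged value of 16.1 in DMSO day 14 libraries. Lpl, lipoprotein lipase, rose by 0.81 (SE 0.24, adjusted p = 0.0408, limma) with overlapping libraries, and passed in 7 of the 14 fits. Averaged over the days, Pltp rose by 0.75 and Scd2, a fatty acid desaturase, by 0.58 (1.02 among libraries with AY036118 high). The call on Scd2 was kept in 7 of 14 fits without 1 library. The list median was then 0.33, with 12 of 14 changes positive and 2 past the threshold. Between the days in GSK libraries, 4 of the 90 kept genes of the lists passed, where 7.01% of all genes did. Among them Pltp rose by 0.96 and Smpdl3a, a lipid phosphodiesterase, by 0.85 on day 14 against day 8, where 7 of 9 epithelium markers fell. With the epithelium covariate these changes were 1.14 and 0.36 and did not pass, in the fit in which 1 gene passed, against 833 without the covariate. The call on Smpdl3a was kept in 8 of 14 fits without 1 library.

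Among the receptors of lipoprotein uptake described here, 1 of 8 kept genes rose and 1 fell on day 14, with a list median of 0.05. Lrp1, an endocytic receptor that binds apolipoprotein E, had log2 values of 10.37, 10.39, 10.32 and 10.32 in GSK day 14 libraries, against 11.14, 10.90, 10.81 and 10.85 in DMSO day 14 libraries. The GSK libraries are close together and lie below all DMSO libraries, where 22% of all tested genes had no overlap in either direction. Lrp1 fell by 0.58 (SE 0.12, adjusted p = 0.00925, limma), a call kept in all 14 fits without 1 library and in all 13 other settings. On day 8 Lrp1 had 10.27, 10.07 and 10.17 in GSK libraries, against 10.70, 10.82 and 10.50 in DMSO libraries. These groups do not overlap either, as for 16.2% of all tested genes, and the change of -0.51 (SE 0.13, adjusted p = 0.0943, limma) did not pass. Cd68, a lysosomal scavenger receptor and also one of the macrophage markers, rose on day 14 by 1.04 (SE 0.30, adjusted p = 0.0376, limma) with overlapping libraries. Its change among libraries with AY036118 high was 0.48 (adjusted p = 0.190, limma). Over both days Lrp1 fell by 0.54 (SE 0.09, adjusted p = 0.00212, limma) and Sorl1, a sorting receptor that also binds apolipoprotein E, rose by 0.45, with the list median at 0.0054. Of the 14 fits without 1 library, the day 14 call on Cd68 was kept in 9 and that on Sorl1 over both days in 2.

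Of the enzymes that make or clear oxysterols, the ligands of the receptors, 3 of 6 were kept, and Cyp27a1, the sterol 27-hydroxylase, was the 1 that rose on day 14. Its mean log2 level was 7.92 ± 0.13 in GSK and 6.91 ± 0.50 in DMSO day 14 libraries (SD, n = 4 each), without overlap, as for 22% of all tested genes. The change was 1.01 (SE 0.28, adjusted p = 0.0334, limma), and the call was kept in 8 of 14 fits without 1 library. Among libraries with AY036118 high the change was 0.63. Cyp27a1 also rose in the mean of both days, by 0.77. Of the 22 kept genes of sterol synthesis and its regulator SREBP2 described here, Msmo1 and Cyp51 fell on day 14, by 0.56 and 0.58, and 20 did not pass, with a list median of -0.07. The calls on Msmo1 and Cyp51 were kept in 9 and 8 of 14 fits without 1 library. Srebf2, which encodes SREBP2, fell in the mean of both days by 0.66 (SE 0.13, adjusted p = 0.00482, limma), Msmo1 by 0.41 and Cyp51 by 0.44, and 19 did not pass. In that order, these calls were kept in 14, 10 and 8 of the 14 fits. The Srebf2 change was -0.39 among libraries with AY036118 high (adjusted p = 0.0889, limma).

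Among the partners and cofactors of the receptors, 1 of 12 kept genes rose on day 14 and none fell. This was Ncoa1, a coactivator of nuclear receptors, with a change of 0.74 (SE 0.16, adjusted p = 0.0116, limma). Over both days the retinoid X receptor gene Rxrb fell by 0.40 and the corepressor gene Ncor1 by 0.34, calls kept in 3 and 12 of 14 fits without 1 library. Of 20 kept genes of other sterol transport and storage, Lipe, hormone-sensitive lipase, fell on day 14 by 0.61 and in the mean of both days by 0.52, kept in 6 and 13 of the 14 fits, and 19 did not pass in either. Of 11 kept PPAR gamma targets, Adipor2 fell by 0.62 and Plin2, a coat protein of lipid droplets, by 0.48 on day 14, and 9 did not pass. Averaged over the days, Plin2 fell by 0.42, Adipor2 by 0.49 and Pdk4, a kinase that restrains glucose oxidation, by 0.99, with a value of -0.58 among libraries with AY036118 high. These targets were measurable while Pparg itself was at the floor, and several of them are known to respond to other PPAR receptors too. Between the days in GSK libraries Cpt1a rose by 0.78 and Ncoa1 by 0.63. With the epithelium covariate neither passed, with changes of -0.040 for Cpt1a, whose direction turned, and 0.25 for Ncoa1. In that fit 1 gene passed, against 833 without the covariate. Of the 90 kept genes of these lists none passed on day 8 or between the days in DMSO libraries, where 12 of them in each comparison had an unadjusted p under 0.05 (limma), against 16.3% and 15.4% of all genes. Nearest on day 8 was Pdk4, with a change of -1.70 (SE 0.35, adjusted p = 0.0530, limma).

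**Figure D3:**
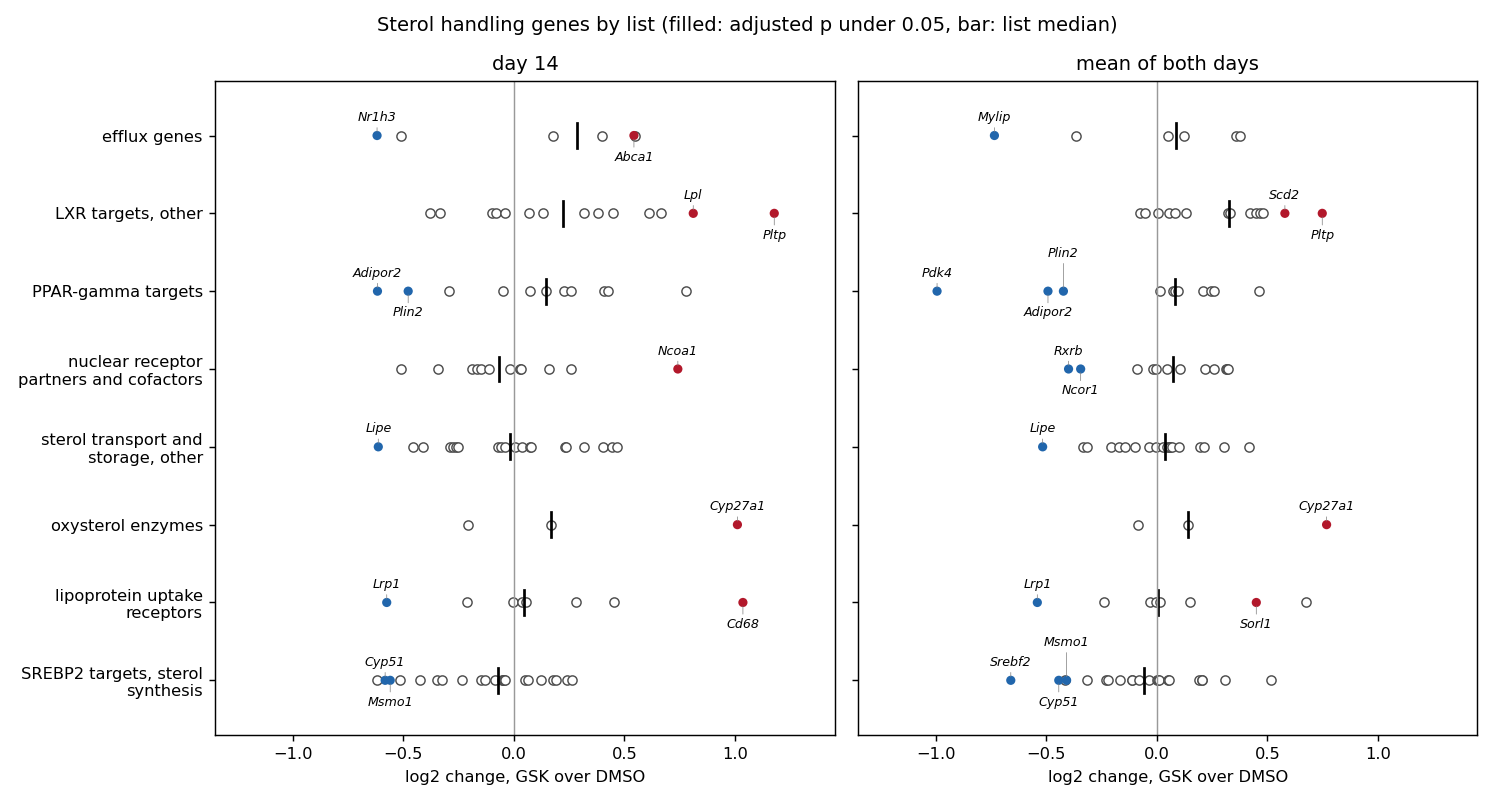
Log2 change of each kept gene, GSK over DMSO, on day 14 (left) and in the mean of both days (right), by list. Filled red and blue points are higher and lower with an adjusted p under 0.05, open points did not pass, and the black bar is the list median. Pltp is the farthest right of the liver X receptor targets on day 14 at 1.18, and Lrp1 is the filled point on the left among the uptake receptors in both panels.

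Finally, genes with a pattern like that of Abca1 and Apoe were sought over the 14 libraries, among kept genes with a mean unlogged level of at least 50. The correlations below are the highest of the table by choice, so they are given without a p. The pattern nearest to Abca1 was that of Ncoa1, with a Pearson r of 0.902 and a Spearman rho of 0.938. The r was 0.892 without GSK day 14 libraries 2 and 4, and 0.699 for deviations from the group means. Next came Ep400, a chromatin remodelling ATPase (r = 0.901), Otud5, a deubiquitinase (0.884), Glyr1 (0.881) and Zfp131 (0.881).

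The pattern nearest to Apoe was that of C1qb, a subunit of complement C1q that macrophages make and one of the macrophage markers. Its Pearson r was 0.962 and its Spearman rho 0.895. The r was 0.923 without DMSO day 8 library 1 and DMSO day 14 library 3, and 0.953 for deviations from the group means. Ubald1 (r = 0.950), Ywhab, a 14-3-3 protein (0.950), G6pdx, glucose-6-phosphate dehydrogenase (0.949), and Tmed10, a cargo receptor of the secretory pathway (0.935), followed. The r within groups is pooled over all groups, and these genes were chosen for a high r. In both DMSO groups the libraries with AY036118 high were the higher for both Apoe and C1qb. In GSK day 8 libraries the order of C1qb was that of Apoe. In the tight GSK day 14 group it was not. There library 4, the highest for Apoe at 17.26, had 14.97 for C1qb, while library 2 had 17.17 and 15.04. The other C1q genes among the macrophage markers differed in direction. Mean log2 levels in GSK day 14, DMSO day 14, GSK day 8 and DMSO day 8 libraries were 15.93, 16.78, 16.45 and 17.07 for C1qa. In the same order they were 14.40, 14.29, 14.04 and 13.96 for C1qc. Likeness of Apoe to the macrophage markers as a set was not tested.

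**Figure D4:**
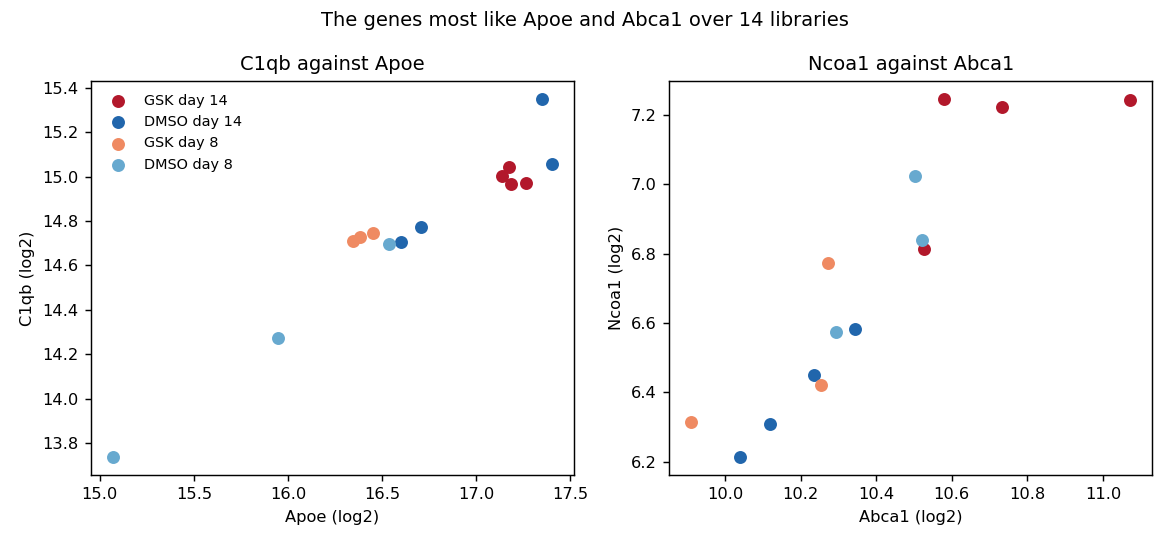
C1qb against Apoe (left) and Ncoa1 against Abca1 (right), each point 1 of 14 libraries on the log2 scale, coloured by group. DMSO day 8 library 1 is the lowest for both Apoe and C1qb, and 3 of the 4 GSK day 14 libraries are the highest for both Abca1 and Ncoa1.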

How the data were processed

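The deposited table holds log2 expression values made by the authors, for 24556 Ensembl genes in 14 libraries. Per the submitters' processing notes the tools were DESeq2 1.12.4, RSEM 1.2.29 and Bowtie2 and the builds GRCh38 and mm10, without roles. The transformation is not given in the sources used here, and a transformation that shrinks low values would understate the changes of weakly expressed genes. Without counts, no counting interval or depth can be given, and the number of libraries limits the precision. Symbols and exon lengths came from GENCODE M21 (GRCm38), in which 24470 identifiers matched.

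Genes were kept at an unlogged value of at least 10 in at least 3 libraries. All 14 libraries entered 1 linear model of the 4 group means (limma 3.58.1, R 4.3.3), moderated by empirical Bayes with a trend on the mean. Two-sided p-values received the Benjamini-Hochberg adjustment across the 11886 kept genes, separately per comparison, and 0.05 was the threshold. Comparisons were GSK against DMSO on each day, their mean, their difference, day 14 against day 8 within each pre-treatment, and, added after the values were seen, the mean of those 2. On simulated day 14 data over 11886 genes, 63% of 100 genes changed by 0.75 and 98% of 100 changed by 1.5 on the log2 scale were recovered. The simulated noise was independent between genes and libraries and held no ribosomal RNA split. The day 14 changes of all tested members were smaller than 0.75 in size, so these rates do not cover them.

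The members and gene lists were chosen with earlier results of these data known. All members were to be named, with up to 4 genes past the threshold from each list and comparison, or else up to 2 of the smallest p. The text gives all of the first and a part of the second, chosen after their values were seen. A few genes of the lists are not reported here, and the list counts and medians are over the others. For each of Abca1 and Apoe, 5 genes of like pattern were taken, without numbered gene models and pseudogenes. Alternatives were pseudocounts of 1 and 10, other filters, 2 scalings, other variance models, a fit of only the groups compared, a replicate block, the ribosomal RNA split, the 4T1 epithelium mean as a covariate and each library left out. Fits of only 1 kind of library by the split were added after the values were seen.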

Additional observations from a re-analysis of the deposited data

Results flagged for a closer look

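Of 90 sets of 4 day 14 libraries examined for a value far from the others, 4 held one, and chance gives about 1 in 20. Nr1h3 had 7.74 on the log2 scale in GSK day 14 library 4, below the other GSK day 14 libraries, whose next value was 8.26. Ncoa1 had 6.81 in GSK day 14 library 3, below the next value of 7.22. Pparg had 0.0314 in DMSO day 14 library 1, above the others of its group, at a level that is the floor of the table. Lrp8, a lipoprotein receptor gene, had 4.37 in DMSO day 14 library 1, below the next value of 4.88.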

How the results depend on the processing

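The call on Mylip in the mean of both days was kept under every setting that could be fitted, and that on Apoe between the days under all but the epithelium covariate. The other member calls rest on few libraries and settings. On day 14 the number of members called was 2, and became 0 with no filter, with a model term for the ribosomal RNA split, with the epithelium covariate or with AY036118-high libraries alone, 1 with the replicate block and 4 with library quality weights. On day 8 it was 0, and 1 with quality weights. In the mean of both days it was 1, and 2 with quality weights or with the epithelium covariate. Between the days in GSK libraries it was 1, and became 0 with no filter, the replicate block, the split term or the epithelium covariate, 2 with only the groups compared and 3 with quality weights. In DMSO libraries it was 0, and 1 with quantile normalisation or the split term. In the mean of both pre-treatments it was 1, and 0 with the epithelium covariate. Leaving out 1 library gave 0 to 3 members on day 14, 0 to 1 on day 8, 1 to 2 in the mean of both days, 0 to 2 between the days in GSK libraries, 0 to 1 in DMSO libraries and 1 in the mean of both pre-treatments. Over all genes, counts without 1 library were 221 to 1628 on day 14 (1287 with all), 0 to 208 on day 8 (23) and 786 to 2299 in the mean of both days (1724). The causes were not tested.

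Changes that turned sign had not passed, except that of Cpt1a. With the epithelium covariate the changes between the days in GSK libraries were -0.34 for Abcg1, 0.074 for Nr1h3, -0.51 for Nr1h2, 0.30 for Mylip and -0.040 for Cpt1a, in DMSO libraries -0.28 for Abcg1, and in the difference between days -0.063 for Abcg1. With the split as a term Apoe had -0.13 on day 14, Nr1h2 had -0.16 in the mean of both days and Mylip had 0.13 between the days in GSK libraries. With AY036118-high libraries alone Apoe had -0.19 on day 14, -0.14 on day 8 and -0.16 in the mean, Nr1h2 had -0.19 in the mean, Mylip had 0.054 between the days in GSK and Abcg1 -0.0012 in DMSO libraries. Nr1h2 in the mean had -0.011 with equal library medians and -0.083 to 0.12 without 1 library. Mylip between the days in GSK libraries had 0.012 with quality weights and -0.082 to 0.054 without 1 library. Without 1 library Abcg1 had -0.058 to 0.40 on day 8 and -0.14 to 0.32 between the days in DMSO libraries, both lowest without DMSO day 8 library 3. Apoe had -0.71 to 0.024 in the difference between days, highest without DMSO day 8 library 1. Over 66 single-gene results and 1764 alternative values, 1506 kept direction and side of the threshold, 209 no longer passed, 23 newly passed and 26 turned sign.

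Same-numbered libraries did not deviate together (correlations of -0.34 to 0.17 over 13 pairs, 2 of them over 0.1), so the numbers were not taken to pair the libraries. Equal medians and quantile normalisation moved the typical gene of a library by at most 0.068.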
